A study of Mus musculus with 3 samples.

Results

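The genes described here encode ligands and receptors of the tumour necrosis factor (TNF) superfamily, the adaptors and kinases below them, the NF-κB transcription factors with their inhibitors, and regulators of cell death and DNA damage. They were chosen by symbol, from the prefixes Tnf, Traf, Nfkb, Ikbk, Casp, Ripk, Cflar and Gadd45 and a set of single names (Rel, Rela, Relb, Birc2, Birc3, Birc6, Fas, Fasl, Bax, Bak1, Bcl2l11 and Mcl1), among probes that carry exactly 1 symbol in the platform annotation. This gave 45 genes on 47 probes, of 6795 genes and 9596 probes in all. Fas, Fasl, Rel, Nfkb1, Nfkb2, Cflar, Bax, Bcl2l11 and the Ripk genes had no such probe and were not analysed here.

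Total RNA of mouse thymocytes was compared on 3 spotted 2-colour arrays. One RNA came from purified CD69hi thymocytes of wild-type B6 (C57BL/6) mice, cells that display the activation antigen CD69 and in the thymus are mostly those that have received a T cell receptor (TCR) signal. The other came from the whole, unseparated thymocytes of Zap70-/- mice, which lack a kinase needed for TCR signalling and whose thymocytes largely stop before positive selection. The titles call this second RNA CD69lo. Arrays 1 and 2 had Cy3 on the CD69hi RNA and Cy5 on the other, and array 3 had these dyes swapped. Genotype, purification and cell composition all differ between the RNAs, and the labels used here give no age or sex of the mice and tie no array to an animal. The p-values therefore cover the array-to-array spread alone, which may be purely technical. In such mixed RNA, more cells that carry a transcript and more transcript per cell cannot be told apart.

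TNF superfamily ligands bind receptors that recruit TRAF adaptors. These lead to the IκB kinases, which have IκB inhibitors degraded and so release NF-κB dimers to the nucleus. The canonical arm ends in RelA dimers and the non-canonical arm in RelB dimers. Some of the receptors can instead start a caspase cascade, which inhibitors of apoptosis (IAPs) and some BCL2 family proteins hold in check. Other BCL2 family proteins promote death. In the thymus, developing T cells pass checks of survival and death during selection, and their TNF superfamily ligands act on the medullary epithelium.

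Among these genes, 3 carry a match to the 10-base NF-κB consensus (κB motif) in a promoter window of the RefSeq table (GRCm38.p6, 250 bases before to 50 after an annotated start, both strands searched). Their 150 bases before the start are shown because one of the 3, Tnfrsf9, had the highest ratio of all 45 genes while the other 2 did not pass the test, with the matched bases in capitals. Tnfrsf9 lies at chr4:150927849-150927998 on the plus strand, Nfkbia at chr12:55492648-55492797 on the minus strand and Casp4 at chr9:5308699-5308848 on the plus strand.
Tnfrsf9: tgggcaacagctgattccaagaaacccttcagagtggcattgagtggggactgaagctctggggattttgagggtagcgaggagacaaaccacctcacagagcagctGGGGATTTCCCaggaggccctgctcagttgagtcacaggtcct
Nfkbia: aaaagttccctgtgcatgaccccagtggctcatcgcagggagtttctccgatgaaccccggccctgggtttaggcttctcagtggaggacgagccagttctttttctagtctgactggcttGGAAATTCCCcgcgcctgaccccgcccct
Casp4: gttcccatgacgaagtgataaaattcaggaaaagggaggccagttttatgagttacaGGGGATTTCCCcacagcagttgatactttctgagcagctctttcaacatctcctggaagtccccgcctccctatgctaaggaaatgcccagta
The Tnfrsf9 and Casp4 windows each hold overlapping matches that form a single run. Counted from the annotated start base as 0, the first matched base lies at -43 in Tnfrsf9, -29 in Nfkbia and -93 in Casp4, and a second Casp4 start places it at -104. Tnfrsf9 has another annotated start whose window holds no match. The 3 genes were 7.89% of the 38 members with a window. Of the 5377 genes on the arrays with a window, 363 (6.75%) held a match, and of all 27025 genes in the table, 1388 (5.14%) did. Counted by window instead of by gene, 1480 of all 32851 (4.51%) held a match. Among members that passed with a higher ratio, 1 of 9 with a window held a match, beside 22 of 214 (10.3%) of all such genes on the arrays. Differences between these shares were not tested, and a match describes letters only. Relb, Ikbkb, Nfkbiz, Tnfsf9, Tnfrsf10b, Tnfrsf11b and Traf3ip2 had no window in the table.

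Each value below is a log2 ratio, with all arrays turned to read CD69hi over Zap70-/-. The deposited values were read as Cy5 over Cy3, and those of arrays 1 and 2 were multiplied by -1. This direction is likely but was not stated. It rests on the labelled dyes and on Rag1, the V(D)J recombinase gene of immature thymocytes, which came out lower in CD69hi RNA (-1.19 ± 0.36, SD, n = 3, limma adjusted p = 0.035). The terminal transferase gene Dntt lay at -1.05 ± 0.71 and did not pass (adjusted p = 0.12). Leaving out array 1 or array 2 ended the Rag1 call (adjusted p = 0.13 and 0.18). Before turning, array 3 correlated with array 1 at r = -0.25 and with array 2 at r = -0.40 over all probes, and arrays 1 and 2 at r = 0.61. Probes are not independent replicates, and with the opposite reading each sign would turn. After turning, over the 45 genes alone, r was 0.68 between arrays 1 and 2, 0.34 between arrays 1 and 3 and 0.41 between arrays 2 and 3.

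Of the 45 genes, 10 were higher in CD69hi RNA, 1 was lower and 34 did not pass the test (limma, Benjamini-Hochberg adjusted p at most 0.05 over all 8905 features). Higher were the receptors Tnfrsf9 and Tnfrsf1b, the ligand Tnfsf11, the NF-κB subunit Relb, the adaptor Traf1, the kinase Ikbke, the IAP Birc3, Tnfaip8l2, and the stress genes Gadd45a and Gadd45b. The caspase Casp2 was lower. The members called in either direction were 24.4% of the set, against 6.94% of all features. The 10 called higher made 22.2% of the set, against 4.13% of all features, and the 1 called lower made 2.22%, against 2.81%. The median log2 ratio was 0.29 over the 45 genes and 0.01 over all features, and on arrays 1, 2 and 3 the median of the 45 was 0.19, 0.24 and 0.47. At least a 2-fold higher value on each array was seen for 7 of the 45 (15.6%, all features 1.89%).

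**Figure D1:**
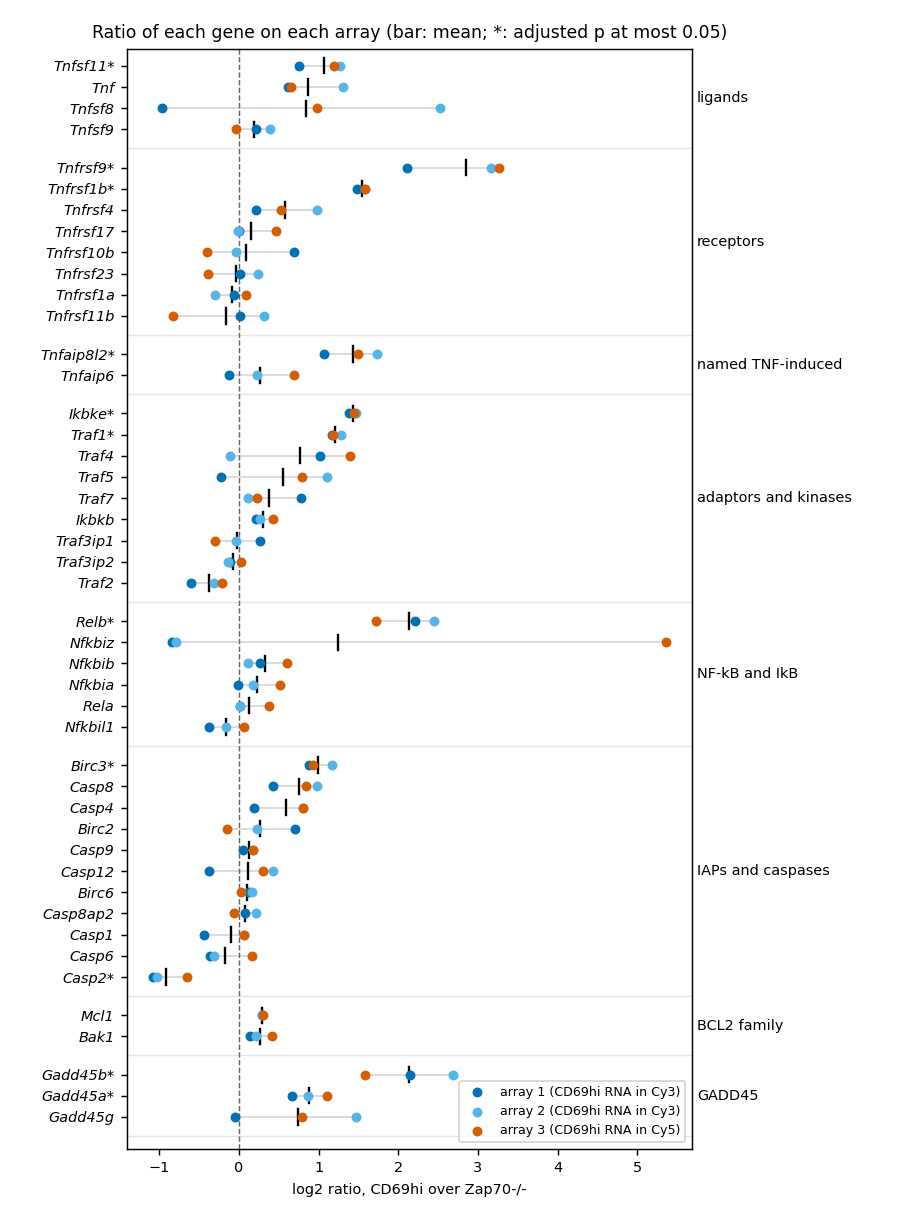
Log2 ratio of CD69hi over Zap70-/- RNA (x axis) for each of the 45 genes (y axis, by role), with 1 point per array, a bar at the mean and an asterisk on the 11 genes with an adjusted p of at most 0.05. Points of Ikbke, Traf1 and Tnfrsf1b nearly coincide, while Nfkbiz runs from -0.84 to 5.36.

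The sign of the ratio was positive on all 3 arrays for 22 of the 45 genes (48.9%), where 24.3% of all features were, and negative on all 3 for 2 genes (4.44%), where 22.7% of all features were. The genes negative throughout were Casp2 and Traf2. The other 21 had both signs. The SD over arrays had a median of 0.28 in the set and 0.27 over all features, and ran from 0.011 for Mcl1 to 3.57 for Nfkbiz.

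The RNAs also differed in transcripts of other cells. Of 17 measured macrophage and dendritic cell markers, 10 were higher in CD69hi RNA and 0 lower, with a list median of 1.06 and array medians of 0.91, 1.61 and 1.16. Those called higher numbered 7, 6 and 10 in the fits lacking array 1, 2 and 3. The lysosomal protease gene Ctss (2.83 ± 0.41) and the lysozyme gene Lyz2 (2.51 ± 0.08) were the highest of them. Many of the TNF superfamily and NF-κB genes are also transcribed in macrophages and dendritic cells, and the part of these cells in the ratios below was not tested. A ratio gives no level, so which of these markers lay near background is not known here. Of 8 T cell genes such as Cd3e (-0.21 ± 0.11), 0 passed (limma, 1 with a nominal p of 0.05 or less). The coreceptor gene Cd8a lay furthest from 0 at -1.13 ± 0.62. Of 7 B cell genes 0 passed (limma, 3 with a nominal p of 0.05 or less). Their list median was 0.35, with means from -0.35 ± 0.48 for Cd79b to 1.40 ± 0.70 for Cd79a. All 8 granulocyte genes had means below 0 (list median -0.90, 7 with a nominal limma p of 0.05 or less), with S100a9 the lowest at -1.98 ± 1.17. Of these, S100a8 alone passed as lower, and its call ended whichever array was omitted (adjusted p = 0.18, 0.35 and 0.052). Granulocyte genes called lower numbered 0, 0 and 4 in the fits lacking array 1, 2 and 3 (limma, 6, 5 and 7 with a nominal p of 0.05 or less) and 5 with a dye term. Of 7 NK and innate-like lymphocyte genes, Klrk1 and Tyrobp were higher and Gzma lower. Tyrobp is also among the macrophage and dendritic cell markers counted above. In this list 0 genes passed when array 1 or array 2 was omitted (limma, 4 and 3 with a nominal p of 0.05 or less). Of 6 immature double-positive genes 3 were lower, Rag1 among them, and 2, 2 and 4 were in the fits lacking array 1, 2 and 3. Of 5 erythroid and 9 epithelial or stromal genes 0 passed (limma, 2 and 2 with a nominal p of 0.05 or less). Such nominal counts are to be read beside all 8905 features, of which 2083 had a nominal limma p of 0.05 or less. Of the 45 genes of the set, 16 had. Cd69 and Zap70 themselves were not analysed here.

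**Figure D2:**
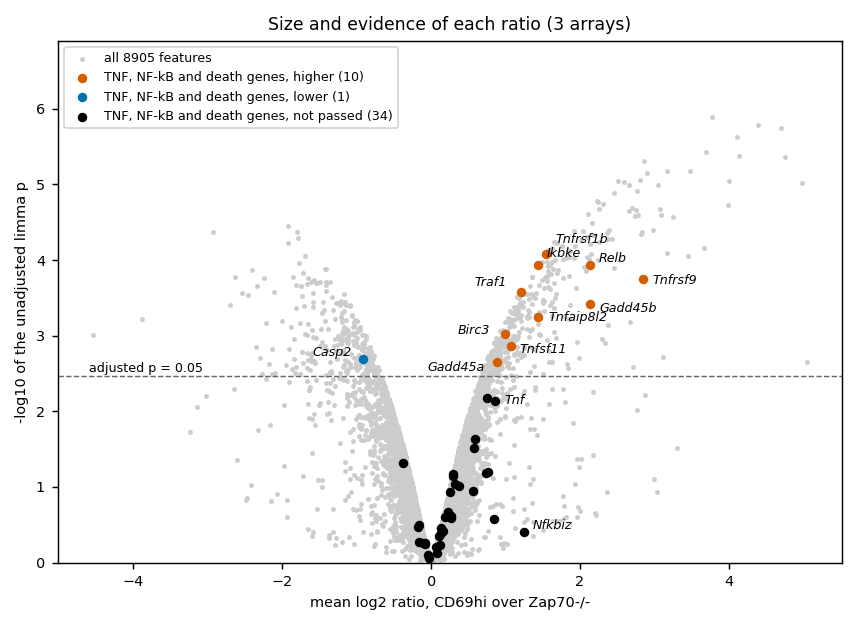
Mean log2 ratio over 3 arrays (x axis) against -log10 of the unadjusted limma p (y axis) for all 8905 features in grey, with the 45 genes coloured by call. The dashed line marks an adjusted p of 0.05. The 10 higher genes lie on the right between 0.88 for Gadd45a and 2.85 for Tnfrsf9, and Casp2 alone is called on the left at -0.92.

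Of 4 ligand genes, 1 was higher. Tnfsf11 encodes RANKL, the ligand by which thymocytes drive maturation of medullary epithelial cells. Its log2 ratios on arrays 1, 2 and 3 were 0.76, 1.27 and 1.19. All of them lay above 0, with array 1 the lowest (mean 1.07 ± 0.27, SD, n = 3, adjusted p = 0.033). Tnf, the founding cytokine of the family, had 0.61, 1.31 and 0.66 on the 3 arrays. It lay above 0 on each array, highest on array 2, and did not pass (0.86 ± 0.39, adjusted p = 0.074, 95% interval 0.36 to 1.36). Tnfsf8, the CD30 ligand, had -0.96, 2.52 and 0.97, so its arrays disagreed in sign (0.84 ± 1.75, adjusted p = 0.51). Tnfsf9, the ligand of the 4-1BB receptor, had 0.21, 0.39 and -0.03 (0.19 ± 0.21, adjusted p = 0.50).

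Of 8 receptor genes, 2 were higher, Tnfrsf9 and Tnfrsf1b, whose proteins bind TRAFs and lack a death domain. Tnfrsf9 encodes 4-1BB (CD137), a costimulatory receptor induced on activated T cells, and its promoter is the first of those shown above. Its log2 ratios on arrays 1, 2 and 3 were 2.11, 3.16 and 3.27. All were far above 0, array 1 being the lowest, and the mean of 2.85 ± 0.64 (adjusted p = 0.014) corresponds to a 7.20-fold higher signal. Its ligand gene Tnfsf9 did not pass. Tnfrsf1b, the second TNF receptor (TNFR2), had 1.48, 1.58 and 1.59, values that almost coincide (1.55 ± 0.06, adjusted p = 0.011, 2.93-fold). For the other TNF receptor gene, Tnfrsf1a, whose protein carries a death domain, the ratios were -0.06, -0.30 and 0.09, on both sides of 0 (-0.09 ± 0.20, adjusted p = 0.75, 95% interval -0.46 to 0.28). The intervals of Tnfrsf1b (1.22 to 1.87) and Tnfrsf1a do not meet, but the difference between these genes was not tested.

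Tnfrsf4, which encodes the costimulatory receptor OX40, had 0.21, 0.98 and 0.53, above 0 on every array, and did not pass (0.58 ± 0.39, adjusted p = 0.17). The other 5 receptor genes had both signs among their arrays and means from -0.17 to 0.15. They were the B lineage receptor gene Tnfrsf17 (BCMA, with 0.002, -0.01 and 0.47 on the 3 arrays), the TRAIL receptor gene Tnfrsf10b, the decoy receptor gene Tnfrsf23, Tnfrsf1a, and Tnfrsf11b, whose product osteoprotegerin captures RANKL. Tnfrsf11b was the lowest on average (0.01, 0.32 and -0.83 on the 3 arrays, mean -0.17 ± 0.59, adjusted p = 0.74). A spotted probe for Tnfrsf23 can also bind its close copies, so its value is uncertain.

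Of 9 adaptor and kinase genes, 2 were higher. Traf1 encodes an adaptor that binds TNFR2 and 4-1BB complexes and is itself widely used as an NF-κB target gene. Its log2 ratios were 1.16, 1.28 and 1.18 on arrays 1, 2 and 3. The values lie within a narrow band (1.21 ± 0.06, adjusted p = 0.017). Ikbke, the gene of the IKK-related kinase IKKε, was as even, with 1.38, 1.47 and 1.45 (1.43 ± 0.05, adjusted p = 0.012, 2.70-fold). The canonical IκB kinase gene Ikbkb had 0.21, 0.27 and 0.42, positive throughout and smaller (0.30 ± 0.11, adjusted p = 0.25), and its 2 probes averaged 0.43 and 0.17.

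The remaining TRAF genes did not pass. Traf4 had 1.02, -0.12 and 1.39 and Traf5 had -0.23, 1.11 and 0.79, so in each a single array lay on the other side of 0 (means 0.77 ± 0.79 and 0.56 ± 0.70, adjusted p = 0.24 and 0.33). Traf2, the adaptor that brings cIAP ligases to TNF receptors, was negative on every array (-0.61, -0.32 and -0.22), with a mean of -0.38 ± 0.20 and an adjusted p of 0.21. Traf7 averaged 0.37 ± 0.35. Traf3ip1, an intraflagellar transport gene that shares the prefix by name, averaged -0.03 ± 0.28, and Traf3ip2, the adaptor of interleukin-17 receptors, -0.08 ± 0.09.

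Of 6 NF-κB and IκB genes, 1 was higher. Relb encodes the subunit of the non-canonical pathway. Its log2 ratios on arrays 1, 2 and 3 were 2.22, 2.45 and 1.73. Each was well above 0, array 3 being the lowest, and the mean was 2.13 ± 0.37 (adjusted p = 0.012, 4.37-fold). Rela, the canonical subunit, had 0.01, 0.01 and 0.38, near 0 on arrays 1 and 2 (0.13 ± 0.21, adjusted p = 0.65, 95% interval -0.25 to 0.51). The interval of Relb ran from 1.65 to 2.61.

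None of the IκB and IκB-like genes passed (0 of 4, limma, 0 with a nominal p of 0.05 or less). Nfkbia (IκBα), whose promoter holds the κB match shown above, had -0.01, 0.17 and 0.51 (0.22 ± 0.27, adjusted p = 0.46). Nfkbib (IκBβ) had 0.26, 0.11 and 0.60 (0.32 ± 0.25, adjusted p = 0.29), and Nfkbil1, an IκB-like gene, averaged -0.16 ± 0.22. Nfkbiz encodes IκBζ, a nuclear IκB protein that acts with NF-κB at some promoters. On arrays 1 and 2 it lay at -0.84 and -0.79 and on array 3, the array of opposite dyes, at 5.36. The mean of 1.24 ± 3.57 (adjusted p = 0.64) therefore stands for none of the arrays, and the sign of this gene rests on array 3. Without array 3 the mean was -0.82 and passed as lower (adjusted p = 0.045), and with a dye term it was 2.27 and passed as higher (adjusted p = 0.024). An estimated dye effect as large as that of Nfkbiz was found for 17 of the 8905 features, itself included. Array 3 alone had the swapped dyes, so this estimate cannot be told apart from a fault of that array. The dye effect passed for 0 of the 8905 features (limma, adjusted p at most 0.05). With a single swapped array and few residual degrees of freedom, this does not show that dye effects were absent.

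**Figure D3:**
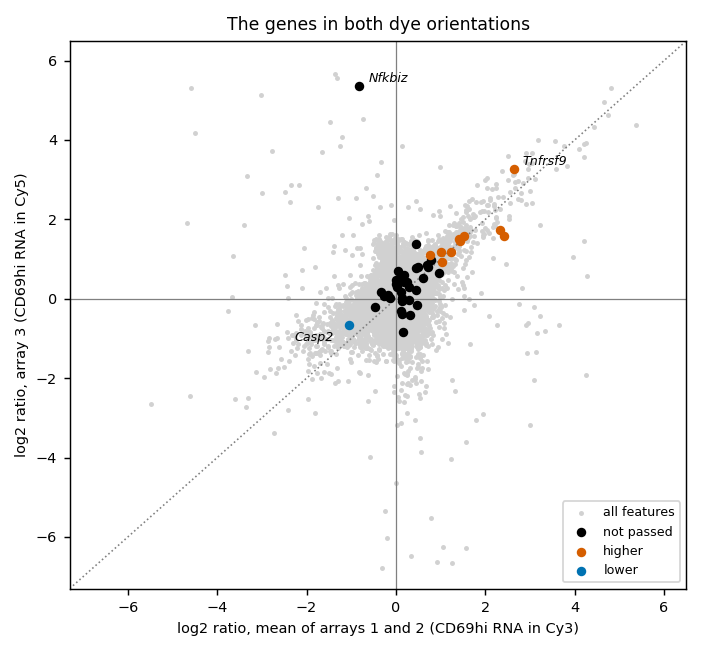
Log2 ratio as the mean of arrays 1 and 2 (x axis, CD69hi RNA in Cy3) against that of array 3 (y axis, CD69hi RNA in Cy5), after turning, for all features in grey and the 45 genes coloured by call. The dotted line marks equal values. The called genes lie near it, and Nfkbiz lies far above it at -0.82 and 5.36.

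The named TNF-induced genes were 2. Tnfaip8l2 encodes TIPE2, a relative of a TNF-induced protein that dampens immune receptor signalling. Its log2 ratios were 1.07, 1.74 and 1.49 on arrays 1, 2 and 3, all at least 2-fold, and the mean was 1.43 ± 0.34 (adjusted p = 0.024). Tnfaip6, a hyaluronan-binding secreted protein gene, had -0.12, 0.22 and 0.70, on both sides of 0 (0.26 ± 0.41, adjusted p = 0.48).

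Of 11 IAP and caspase genes, 1 was higher and 1 lower. Birc3 encodes cIAP2, a ubiquitin ligase of TNF receptor complexes. Its log2 ratios were 0.88, 1.17 and 0.93, close together (0.99 ± 0.16, adjusted p = 0.029, 1.98-fold). The sister gene Birc2 (cIAP1) had 0.70, 0.23 and -0.15 and did not pass (0.26 ± 0.43, adjusted p = 0.50), nor did the giant IAP gene Birc6 (0.10 ± 0.07). Casp2, an initiator caspase linked to DNA damage and mitotic stress, had -1.08, -1.03 and -0.65. All arrays were below 0, array 3 the nearest to it, and the mean was -0.92 ± 0.24 (adjusted p = 0.039, 1.89-fold lower).

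Of the other caspase genes, Casp8, the initiator of the death receptor pathway, came nearest to passing. Its ratios were 0.43, 0.98 and 0.84, above 0 on each array (0.75 ± 0.29, adjusted p = 0.071, 95% interval 0.32 to 1.18). Casp4, an inflammatory caspase gene with the κB match shown above, had 0.19, 0.80 and 0.80 (0.60 ± 0.36, adjusted p = 0.14). Casp9, the initiator of the mitochondrial pathway, lay near 0 (0.13 ± 0.07, adjusted p = 0.60), its 2 probes at 0.10 and 0.16. The executioner gene Casp6 averaged -0.18 ± 0.30, and the inflammatory caspase genes Casp1 and Casp12 averaged -0.11 ± 0.29 and 0.12 ± 0.44. Casp8ap2, which is named for binding caspase-8 and also acts in histone mRNA synthesis, averaged 0.07 ± 0.14. Probes for Casp1, Casp4 and Casp12 can bind one another's transcripts, so these values are uncertain.

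Neither BCL2 family member passed (0 of 2, limma, 0 with a nominal p of 0.05 or less). Mcl1, a survival factor of thymocytes, was the most even gene of the set, with 0.29, 0.28 and 0.30 on arrays 1, 2 and 3 (0.29 ± 0.01, adjusted p = 0.25, 95% interval -0.03 to 0.61). Bak1, a pore-forming death effector, had 0.14, 0.22 and 0.42 (0.26 ± 0.14, adjusted p = 0.33). Both were above 0 throughout, at ratios below that of any gene called higher. A further probe annotated to both Usp21 and Mcl1, outside the set, was negative on every array (mean -0.37 ± 0.05).

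Of the 3 GADD45 genes, which encode small stress sensors that activate MAP kinase pathways, 2 were higher. Gadd45b, which is also induced through NF-κB, had 2.15, 2.68 and 1.58, array 3 being the lowest and all above 0 (2.14 ± 0.55, adjusted p = 0.020, 4.40-fold). Gadd45a, a p53 target, had 0.67, 0.87 and 1.10 (0.88 ± 0.22, adjusted p = 0.041), the smallest ratio among those called higher. Gadd45g had -0.05, 1.47 and 0.79, so its arrays spread across 0 (0.74 ± 0.76, adjusted p = 0.25).

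The calls rested on the arrays to different degrees. Relb and Tnfrsf9 passed whichever single array was left out. Leaving out array 2 ended the calls of Ikbke and Tnfrsf1b (adjusted p = 0.067 and 0.056), and leaving out array 1 that of Gadd45b (adjusted p = 0.053). Tnfaip8l2 was lost in the fits lacking array 2 or 3 (adjusted p = 0.11 and 0.057). Birc3, Traf1 and Casp2 lost theirs when array 1 was omitted (adjusted p = 0.11, 0.072 and 0.18) and when array 2 was (adjusted p = 0.22, 0.12 and 0.26). Gadd45a and Tnfsf11 needed every array, with adjusted p = 0.12 and 0.072 when array 1 was omitted, 0.25 and 0.21 for array 2, and 0.053 and 0.063 for array 3. Members called higher thus numbered 5, 3 and 7 in the fits lacking array 1, 2 and 3. Those called lower numbered 0, 0 and 2. All features called in either direction numbered 201, 119 and 692, beside 618 with every array. Casp2 also did not pass with the arrays scaled (adjusted p = 0.081). None of these 11 genes changed sign in any of the fits. Each had the same sign on all 3 arrays, so leaving out an array could not change it.

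Other genes of the same pathways were read from lists written by function. Beside the called counts of the lists below and of the markers above, 4.13% of all features were called higher and 2.81% lower. Of 25 measured genes of TNF receptor and NF-κB signalling, 5 were higher, 0 were lower and 20 missed the threshold, the median log2 ratio being 0.26. The lymphotoxin gene Lta, a TNF family ligand named outside the prefix, had 0.87, 1.00 and 1.60 on arrays 1, 2 and 3 (1.15 ± 0.39, adjusted p = 0.040). Bcl3, an IκB protein that coactivates NF-κB (1.02 ± 0.25, adjusted p = 0.033), the TRAF-binding gene Tank (1.00 ± 0.23, adjusted p = 0.033), the receptor gene Cd40 (0.85 ± 0.20, adjusted p = 0.042) and the kinase gene Map3k8 (0.82 ± 0.10, adjusted p = 0.036) were higher as well. Map3k14, the kinase NIK of the non-canonical arm, lay at 0.67 ± 0.15 and did not pass (adjusted p = 0.059). In this list 0 genes passed without array 1 or without array 2 (limma, 9 and 6 with a nominal p of 0.05 or less), and 4 were higher and 2 lower without array 3.

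Of 22 other apoptosis genes, 1 was higher, 2 were lower and 19 missed the threshold (median -0.10). The survival gene Bcl2l1 had -1.09, -1.04 and -0.84 (-0.99 ± 0.13, adjusted p = 0.028), and Bid, which links caspase-8 to the mitochondria, had -1.58, -1.51 and -0.84 (-1.31 ± 0.41, adjusted p = 0.033). Both were below 0 on every array, and both calls ended when array 1 was omitted (adjusted p = 0.13 and 0.12), when array 2 was (adjusted p = 0.20 and 0.15) and with the arrays scaled. The higher gene was the orphan receptor Nr4a1, and Bcl2 lay at 0.40 ± 0.38 (adjusted p = 0.28).

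Of 21 genes widely listed as NF-κB targets, 10 were higher, 1 was lower (Bcl2l1) and 10 missed the threshold (median 0.70). The list was drawn up with ratios of some of its genes, such as Ccl22 and Ccr7, already known, so it is no independent evidence of a direction. The chemokine receptor gene Ccr7 (3.25 ± 0.44, adjusted p = 0.0070), the chemokine gene Ccl22 (3.07 ± 0.37, adjusted p = 0.0068) and the hyaluronan receptor gene Cd44 (2.15 ± 0.33, adjusted p = 0.011) were the highest. Next were the adhesion genes Vcam1 (1.97 ± 0.69, adjusted p = 0.032) and Icam1 (1.49 ± 0.08, adjusted p = 0.011) and the factor Irf4 (1.84 ± 0.20, adjusted p = 0.010). Macrophages and dendritic cells also transcribe several of these, and 10 of their 17 markers were higher in the same RNA (7 and 6 when array 1 or array 2 was omitted). The part of these cells in the target ratios was not tested. In the fits lacking array 1, 2 and 3, these targets called higher numbered 6, 5 and 9.

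**Figure D4:**
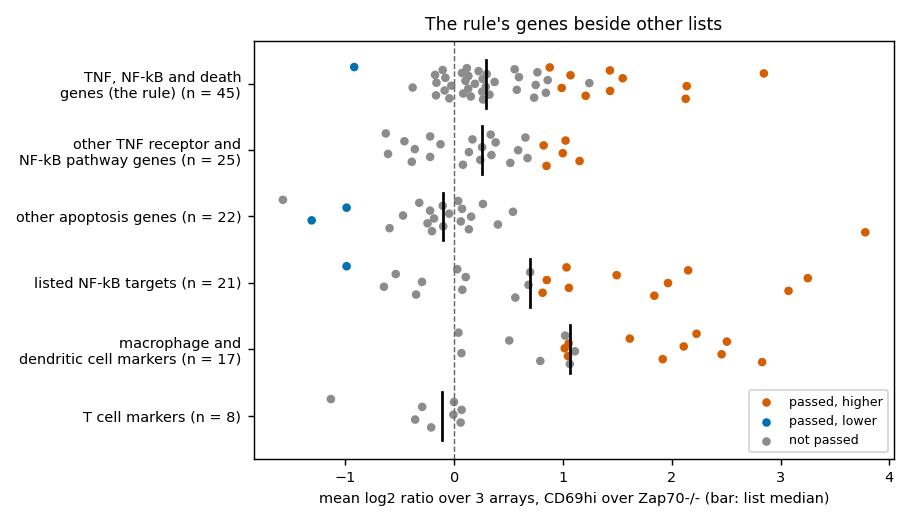
Mean log2 ratio over 3 arrays (x axis) of each gene of the set and of 5 other lists (y axis), 1 point per gene, with a bar at the list median. The medians are 0.29 for the set, 0.26 for other pathway genes, -0.10 for other apoptosis genes, 0.70 for listed NF-κB targets, 1.06 for macrophage and dendritic cell markers and -0.11 for T cell markers.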

How the data were processed

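RNA of CD69hi wild-type and of unseparated Zap70-/- mouse thymocytes was hybridised together on 3 spotted 2-colour arrays. The authors deposited a single log ratio for every probe on each array, read here as log2. Its base, background correction and normalization were not given in the sources. A natural logarithm would give larger fold changes. Deposited values ran from -9.40 to 6.53, with array medians within 0.005 of 0 and 0 values missing. No intensities were used, so dim spots were not left out, and the number of arrays limits the precision.

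Probes with 1 symbol (7486) were averaged per symbol. Other probes stood alone, giving 8905 features. All 47 member probes matched the RefSeq gene table (GRCm38.p6) by Entrez identifier, with 0 symbols changed. Arrays 1 and 2 were multiplied by -1. Each feature was fitted across all features by limma 3.58.1 under R 4.3.3 (lmFit, then eBayes), using 1 coefficient, 2 residual degrees of freedom and 2.75 added by shrinkage. Tests were two-sided, with Benjamini-Hochberg adjustment over all features. The mean ± SD over arrays and 95% intervals from the moderated SE are given. An exact sign-flip test of 3 arrays cannot go below 0.25. On data simulated from the fitted limma model (5 runs of 8905 features), 16.4% of changes of 1 and 84.0% of changes of 2 on the log2 scale were found. Of 531 calls there, 29 were false. The noise was independent and normal, with variances drawn from that fit, and fewer changes were planted than were called in the real data. These rates describe that model and need not hold for these arrays. A gene that did not pass is in any case not shown to be unchanged.

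Every member could be named. Per-array values were given for members that passed and, in each role group, for up to 3 others with the largest absolute mean. Those of Ikbkb, Rela and Tnfrsf1a were added after they were seen. From each other list up to 6 called genes and from each marker list the 2 largest were eligible, and Bcl2, Bcl2l1, Bid, Rag1 and Dntt were set beforehand. Members and lists were chosen with earlier results of these data known. Map3k14, Cd3e, S100a8 and some other values were named after they were seen. Alternatives left out each array, added a dye term, scaled or centred the arrays, used robust shrinkage, fitted each probe alone, left out features with an absolute ratio above 4 or left array 3 unturned.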

Additional observations from a re-analysis of the deposited data

How the results depend on the processing

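With 1 array left out, the features called in either direction numbered from 119 to 692 (618 with all 3). The members called higher numbered from 3 to 7 (10 with all 3) and those called lower from 0 to 2 (1 with all 3). Each such fit has fewer residual degrees of freedom. With the arrays scaled, 370 features passed in either direction. The members called higher remained 10 in number while those called lower were 0. The residual spread of the fit with a dye term comes from arrays 1 and 2 alone, which share their dyes. Spread between these and array 3 does not enter its p-values, so a higher count there is no gain in evidence. With this dye term 1076 features passed in either direction. Of the members, 11 were higher, the addition being Nfkbiz, and 1 was lower. With array 3 left unturned, 0 features, 0 members higher and 0 members lower passed (limma), which puts a sign opposed to the labelled dyes on that array. Nfkbiz was the 1 member whose sign turned with a call, with leave-one-out values from -0.82 to 2.29. Median centring, robust shrinkage, probes fitted alone and leaving out ratios above 4 each kept all 11 calls. For 43 of the 45 genes a single probe gave the value, and without spot intensities signal over background could not be judged. Labels give no pairing, and no paired analysis was possible because there is 1 group of arrays.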

Other observations

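A pair of probes carry several symbols, at least 1 of which fits the symbol rule, and were left out of the set because the rule asks for exactly 1. The probe annotated to both Usp21 and Mcl1 had log2 ratios of -0.41, -0.39 and -0.31 on arrays 1, 2 and 3 (mean -0.37 ± 0.05, SD, n = 3), negative throughout, whereas the probe of Mcl1 alone was positive throughout. The probe annotated to Tnfsf12, Tnfsf13 and their read-through transcript Tnfsfm13 had 0.29, 0.40 and 0.06 (0.25 ± 0.18). Which transcript these probes measured is not known here.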
